A study of Mus musculus with 4 samples.

Results

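Glycolysis and hypoxia-inducible genes were followed in activated mouse CD4+ T cells before and after interferon alpha (IFNa), a type I interferon. The set was a given list of 38 genes, out of 19752 genes that had a row of their own on the array. It was chosen with earlier results of these data known, so its shares of calls are not an independent test against all genes. It held 3 transporters of glucose or lactate, 15 glycolytic enzymes, 3 regulators of glycolytic flux, 15 targets of hypoxia-inducible factor (HIF) that lie outside glycolysis, and 2 genes of the HIF system itself (Hif1a and Vhl). Each gene was represented by the row naming it alone, or by the row with the highest mean where there were several. On that rule 35 genes had a row. Gpi1 and Eno1 had no row here, and Gapdh was named only on 19 rows that it shares with other genes.

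The cells came from spleens of male C57BL/6 mice, a common inbred strain, at 6 weeks of age. CD4+ T cells were enriched by negative selection and then kept for 48 h on beads that trigger CD3 and CD28. Of the 4 arrays, 2 held activated cells without IFNa (baseline), 1 held activated cells after 2 h with 100 U/ml IFNa, and 1 held activated cells after 8 h with the same dose. For both IFNa samples, IFNa is the agent named in most labels, but a note on preparation also lists JAK inhibitors as +/-. All cells therefore shared the bead activation, and since untreated cells cultured for a further 2 or 8 h were not analysed here, an effect of IFNa and one of extra culture time cannot be told apart. Nothing in the labels tells whether separate mice or cultures gave the 2 baseline samples. The p-values thus set each difference against a spread that comes only from this pair of arrays and is pooled in part over all genes tested. That spread may be technical, and the test takes each lone IFNa array to be as variable as a baseline array.

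Glycolysis splits glucose into pyruvate in the cytosol, and lactate dehydrogenase turns pyruvate into lactate to restore the cofactor NAD+. T cells that are activated through CD3 and CD28 take up more glucose and lean on this route to grow, even where oxygen is present. HIF is a transcription factor made of an oxygen-regulated subunit (Hif1a or Epas1) and a constant partner. Prolyl hydroxylases of the Egln family mark the regulated subunit when oxygen is available, and the Vhl ubiquitin ligase then has it destroyed. HIF activates most glycolytic genes and a wider set of genes for mitochondrial turnover, vessel growth, collagen modification and its own hydroxylases, and it binds DNA at a short core, ACGTG or GCGTG.

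HIF can act at such cores near gene starts. The 250 bases before the start are therefore shown for 8 members, taken from RefSeq windows of the build GRCm38.p6. Capitals mark every ACGTG or GCGTG on either strand (CACGT and CACGC are the same letters read on the other strand), and each window is printed 5′ to 3′ on the gene's own strand. The first 3, Egln3, Bnip3 and Ero1a, are from the 8 HIF targets outside glycolysis that fell at 8 h, and not all of those 8 had a core. Hk2, Pfkl and Tpi1 are the enzymes that fell at 8 h, and Ldha and Kdm3a are shown because they were not called in any comparison.
Egln3 (chr12:54203875-54204124, - strand): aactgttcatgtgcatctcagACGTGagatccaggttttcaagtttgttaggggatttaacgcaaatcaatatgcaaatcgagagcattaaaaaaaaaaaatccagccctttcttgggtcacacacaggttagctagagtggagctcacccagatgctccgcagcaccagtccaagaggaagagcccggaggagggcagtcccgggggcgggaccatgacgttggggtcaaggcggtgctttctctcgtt
Bnip3 (chr7:138909507-138909756, - strand): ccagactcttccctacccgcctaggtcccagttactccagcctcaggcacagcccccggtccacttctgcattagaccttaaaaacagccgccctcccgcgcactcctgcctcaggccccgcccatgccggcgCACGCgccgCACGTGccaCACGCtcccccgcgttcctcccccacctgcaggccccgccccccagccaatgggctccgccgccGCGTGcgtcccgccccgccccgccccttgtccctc
Ero1a (chr14:45318573-45318822, - strand): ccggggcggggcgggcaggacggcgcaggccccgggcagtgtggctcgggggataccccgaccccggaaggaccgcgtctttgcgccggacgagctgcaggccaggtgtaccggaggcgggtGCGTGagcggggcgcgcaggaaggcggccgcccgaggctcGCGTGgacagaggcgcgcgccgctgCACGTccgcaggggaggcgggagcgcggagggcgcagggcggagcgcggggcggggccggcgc
Hk2 (chr6:82774455-82774704, - strand): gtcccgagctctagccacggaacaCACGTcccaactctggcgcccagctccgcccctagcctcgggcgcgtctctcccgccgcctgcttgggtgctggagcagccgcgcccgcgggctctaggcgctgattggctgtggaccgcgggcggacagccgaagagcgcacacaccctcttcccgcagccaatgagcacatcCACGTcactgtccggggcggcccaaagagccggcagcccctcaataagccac
Pfkl (chr10:78009808-78010057, - strand): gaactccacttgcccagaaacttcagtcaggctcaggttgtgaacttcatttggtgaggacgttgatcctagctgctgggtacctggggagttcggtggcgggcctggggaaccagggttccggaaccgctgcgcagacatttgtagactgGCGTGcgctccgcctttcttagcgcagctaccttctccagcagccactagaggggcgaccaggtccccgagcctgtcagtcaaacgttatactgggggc
Tpi1 (chr6:124814159-124814408, - strand): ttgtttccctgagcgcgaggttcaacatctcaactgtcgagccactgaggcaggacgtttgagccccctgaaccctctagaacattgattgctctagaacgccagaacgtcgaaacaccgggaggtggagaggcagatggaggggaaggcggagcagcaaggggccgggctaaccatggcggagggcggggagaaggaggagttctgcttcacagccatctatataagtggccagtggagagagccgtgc
Ldha (chr7:46845554-46845803, + strand): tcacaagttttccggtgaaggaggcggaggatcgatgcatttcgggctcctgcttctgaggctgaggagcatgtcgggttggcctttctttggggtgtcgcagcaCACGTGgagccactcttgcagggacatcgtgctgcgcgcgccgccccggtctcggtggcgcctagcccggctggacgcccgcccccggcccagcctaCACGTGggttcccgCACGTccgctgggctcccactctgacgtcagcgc
Kdm3a (chr6:71632918-71633167, - strand): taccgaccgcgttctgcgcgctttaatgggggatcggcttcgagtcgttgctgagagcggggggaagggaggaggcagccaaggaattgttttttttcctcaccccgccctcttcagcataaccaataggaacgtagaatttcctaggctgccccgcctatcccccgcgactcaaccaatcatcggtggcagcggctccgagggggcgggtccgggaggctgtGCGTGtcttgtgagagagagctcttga
The Bnip3 window held a cluster of cores between 117 and 99 bases before the start and a further one at 35 bases. Its pair of matches at 108 and 107 bases is a single palindrome, CACGTG, the letters also known as an E-box, so ACGTG and CACGTG overlap there. Egln3 had 1 core, 229 bases before the start, and Ero1a had cores at 128, 88 and 63 bases. In Hk2 they lay at 226 and 52 bases and in Pfkl at 99 bases, while the Tpi1 window had none. Ldha, which was not called, had the CACGTG palindrome at 2 places, from 145 and from 48 bases, and a further core at 34 bases. Kdm3a, also not called, had 1 core at 27 bases.

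Across members, 35 of the 38 genes had a promoter window (Slc2a3, Bnip3l and Ndrg1 had none). Where a gene had several starts, the most upstream one was used. A core of either kind was found in 11 of 13 HIF targets outside glycolysis (84.6%) and in 10 of 15 glycolytic enzymes (66.7%). Among the genes tested on the arrays, 57.5% of 8607 windows held one, and among all 27025 genes with a window 38.6% did. The ACGTG form alone was in 61.5% of the HIF targets, 33.3% of the enzymes and 22.3% of the tested genes. Of the 11 members that fell at 8 h 9 had a core (81.8%), all but Vegfa and Tpi1. Of the 20 tested members with a window that were not called at 8 h 15 had one (75%). A match is a description of the letters and says nothing about binding in these cells. Bases outside these windows and other starts of a gene were not searched, so a window without a core does not show that the gene lacks one.

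The arrays carried the response that the treatment labels name. Of 9 interferon-induced genes chosen as a check, 8 were tested and all 8 rose at both times, by medians of 3.16 and 3.12 on the log2 scale. Of 10 listed CD4+ T cell markers, 9 had a row and all 9 lay above the array's median on all 4 arrays. All 3 NK cell markers and all 4 dendritic cell markers lay below it on every array. Of the myeloid markers 6 of 7 did, Lyz2 being the exception. All 4 measured B cell markers (Cd79a, Cd79b, Ms4a1 and Pax5) lay above the median on every array, with a summed intensity of 2165 and 2184 at baseline, 2099 at 2 h, then 2776 at 8 h. Both CD8 genes (Cd8a and Cd8b1) lay above the median on 1 or more arrays, and 1 of them did on all 4. Of the 2 measured erythroid genes, Slc4a1 lay above it on some arrays and the other on none. The sum for the 2 CD8 genes was 1112 and 1001 at baseline, 921 at 2 h and 1191 by 8 h. The B cell and CD8 sums were thus both highest on the array where most members were lowest. So were those of the CD4+ T cell genes (33825 to 38837 on the other arrays, 40754 at 8 h), of the dendritic genes (326 to 420, and 459 at 8 h) and of the 2 measured erythroid genes (216 to 261, and 340 at 8 h), while the NK and myeloid sums were highest on baseline 1. The part of other cell types in the results was not tested. In a bulk sample, fewer cells of a type and less RNA per cell cannot be told apart.

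Values below are log2 of the deposited intensity, and a log2 difference of −1 is a 2-fold fall. Of the 35 measured members, 34 were tested, since on 1 or more arrays they were brighter than that array's middle row. P4ha2, a catalytic subunit of collagen prolyl hydroxylase, was dim throughout (6.63 and 6.72 at baseline, 6.68 at 2 h, 6.76 at 8 h) and was set aside. Among the tested members 29 lay above the median on all 4 arrays. Ak4, Hk2 and Aldoc lay above it on all but the 8 h array, Pfkfb4 on baseline 2 and at 2 h, and Higd1a only at 2 h, so these 5 were tested only because of arrays other than the 8 h array. Intensities of different genes depend on their probes and are not compared with each other.

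The baseline arrays themselves differed in these genes, and not equally by role. All 12 tested glycolytic enzymes, all 3 transporters and all 3 flux regulators were higher in baseline 2 than in baseline 1, whereas 7 of 14 HIF targets outside glycolysis were. Over all 10699 genes tested, 67.5% were higher in baseline 2. The median difference between the baseline arrays was 0.39 for the enzymes, 0.75 for the transporters and 0.00 for the HIF targets, against 0.10 for all genes tested. The widest gaps were those of Aldoc (1.10), the lactate exporter Slc16a3 (1.08) and Ddit4 (0.81), and Bnip3 was the member that lay furthest the other way (−0.47). Differences of the transporters and enzymes from baseline therefore rest more on which baseline array is used than those of most HIF targets do.

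**Figure D1:**
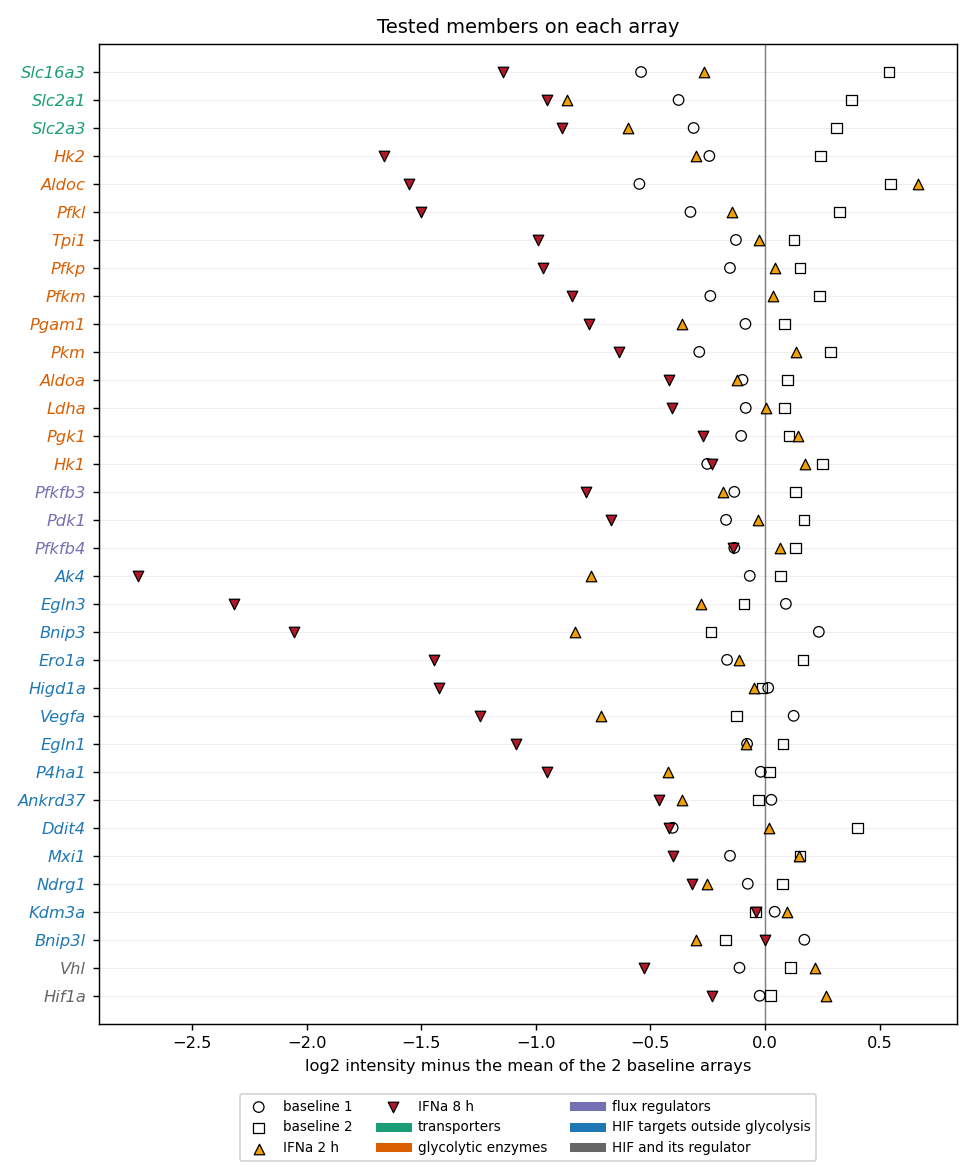
Log2 intensity of the 34 tested members on each of the 4 arrays, given as the difference from the mean of the 2 baseline arrays (x axis), with members grouped by role (colour of the name). The 8 h points lie below both baseline points for 31 members, and the 2 h points do so for 16.

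The comparison of 2 h with baseline asks whether the set moved early. No member was called in either direction at 2 h (limma, adjusted p under 0.05), against 1.1% of all genes tested (1.09% higher and 0.00935% lower), and 4 members were lower and 0 higher at an unadjusted p under 0.05 (2.78% of all genes lower and 9.36% higher). After quantile normalization 5 were called, all lower, namely Ak4, Bnip3, Slc2a1, Slc2a3 and Vegfa, and calls rose over all genes too, to 1.02% lower and 3.1% higher. The 2 h array lay below both baseline arrays in 10 of 14 HIF targets outside glycolysis, in 3 of 12 enzymes and in 2 of 3 transporters, while 33.0% of all genes tested did. It lay above both in 5 of 34 members, compared with 44.5% of all genes. The baseline arrays typically lay further apart in the enzymes and transporters than in the HIF targets, which leaves more room between them. Such counts are therefore not comparable between roles. Log2 differences were below 0 in 21 of 34 members (43.0% of all genes), and none was 2-fold lower (0.0654% of all genes), though Bnip3 was against baseline 1 alone and Slc2a1 against baseline 2 alone. The median log2 difference was −0.27 for the HIF targets, 0.02 for the enzymes and −0.60 for the transporters, with 0.06 for all genes tested. Whether the role lists differ from each other was not tested, since genes are not replicates.

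Of the HIF targets, Bnip3, a mitophagy receptor on the outer mitochondrial membrane, stood at 11.23 and 10.76 on the baseline arrays and at 10.16 at 2 h. Its log2 difference was −0.83 (SE 0.24, limma adjusted p = 0.226), with −1.07 from baseline 1 alone and −0.60 from baseline 2 alone. Ak4, an adenylate kinase of the mitochondrial matrix, went from 10.23 and 10.36 to 9.53, a difference of −0.76 (SE 0.20, limma adjusted p = 0.186). Vegfa, the vascular growth factor, read 9.72 and 9.47 at baseline and 8.88 at 2 h, a difference of −0.72 (SE 0.21, limma adjusted p = 0.235). All 3 lay below both baseline arrays at 2 h, but none of these differences passed the test on the deposited scale.

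Slc2a1, the main glucose importer of activated T cells, measured 11.32 and 12.07 at baseline and 10.83 at 2 h. Its difference of −0.86 had a wide error (SE 0.30, limma adjusted p = 0.314), and stood at −0.49 from baseline 1 and −1.24 from baseline 2. Slc2a3, a high-affinity glucose importer, read 10.06 and 10.68 at baseline and 9.77 at 2 h (−0.60, SE 0.27). Both importers were below both baseline arrays. Slc16a3, which exports lactate, lay between them at 2 h (9.49 and 10.57 at baseline, 9.76 at 2 h).

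Most enzymes lay close to baseline at 2 h, from −0.36 for the phosphoglycerate mutase Pgam1 to 0.67 for the aldolase Aldoc. Of the 12, 7 lay between the 2 baseline arrays. Aldoc was high on baseline 2 and at 2 h (9.58 and 9.70) and lower on baseline 1 (8.48), so its 2 h value sat 1.22 above one baseline array and 0.12 above the other. Hif1a, the oxygen-regulated subunit, read 12.44 and 12.49 at baseline and 12.73 at 2 h (0.27, SE 0.20, limma adjusted p = 0.617). Vhl, the substrate-binding part of the ligase that destroys it, stood at 0.22 (SE 0.21). Both lay above the baseline arrays at 2 h and did not pass the test.

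The comparison of 8 h with baseline asks which of these genes had changed later. Of 34 tested members, 11 fell and none rose (limma, adjusted p under 0.05), where 3.35% of all genes tested were called lower and 0.654% higher. The members were chosen with earlier results of these data known, and the part of that choice in their share was not tested. The falls were spread over 8 of 14 HIF targets outside glycolysis (Ak4, Egln3, Bnip3, Ero1a, Higd1a, Vegfa, Egln1 and P4ha1) and 3 of 12 enzymes (Hk2, Pfkl and Tpi1). No transporter, flux regulator or gene of the HIF system was called. At an unadjusted p under 0.05 (limma), all 3 transporters, 2 of 3 flux regulators and Vhl were lower, as were 19.0% of all genes tested. At that cut 8 of 12 enzymes and 9 of 14 HIF targets were lower, so the gap between these 2 lists depends on the threshold. The median log2 difference was −1.02 for the HIF targets, −0.81 for the enzymes, −0.95 for the transporters and −0.67 for the flux regulators, against −0.16 for all genes tested.

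Low values at 8 h were not limited to the called members. The 8 h array lay below both baseline arrays in 31 of 34 members, compared with 55.9% of all genes tested. These were 11 of 12 enzymes, 12 of 14 HIF targets, all 3 transporters, all 3 flux regulators, and both Hif1a and Vhl. The exceptions were Hk1, Kdm3a and Bnip3l, which lay between them, so no member was above both (24.4% of all genes). Log2 differences were below 0 in 33 of 34 members (67.4% of all genes). At least 2-fold lower were 11 members (2.6% of all genes tested), which became 16 against baseline 2 alone and 10 against baseline 1 alone. The deposited arrays also differed in their distributions. The upper quartile of all rows was 9.39 and 9.51 at baseline, 9.59 at 2 h and lowest, 9.16, at 8 h. The median was 7.61 and 7.52 at baseline, 7.46 at 2 h and highest, 7.64, at 8 h. The part of this in the members' low values at 8 h was not tested.

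The number of calls moved with the filter and the scaling, for the members and for all genes. With every gene tested and no filter on dim rows, 6 members were called, all among the 11 above, and Egln1, P4ha1, Pfkl, Tpi1 and Vegfa no longer passed, while 0.511% of all 19752 genes were lower. A stricter filter kept 8, without P4ha1 and Tpi1 and with Higd1a no longer tested, beside 2.36% of all genes. After quantile normalization or with each array centred on its median 19 were called, all lower, which took in all 11 and the same 8 others in both (Aldoc, Pfkfb3, Pfkm, Pfkp, Pgam1, Slc16a3, Slc2a1 and Slc2a3). Of these 8, Aldoc, Pfkm, Pfkp and Pgam1 are enzymes, and none is a HIF target outside glycolysis. Over all genes, 8.41% were then lower after quantile normalization and 6.77% with centred arrays. Quantile normalization also moved the split of all calls, from 358 lower and 70 higher to 900 lower and 663 higher.

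**Figure D2:**
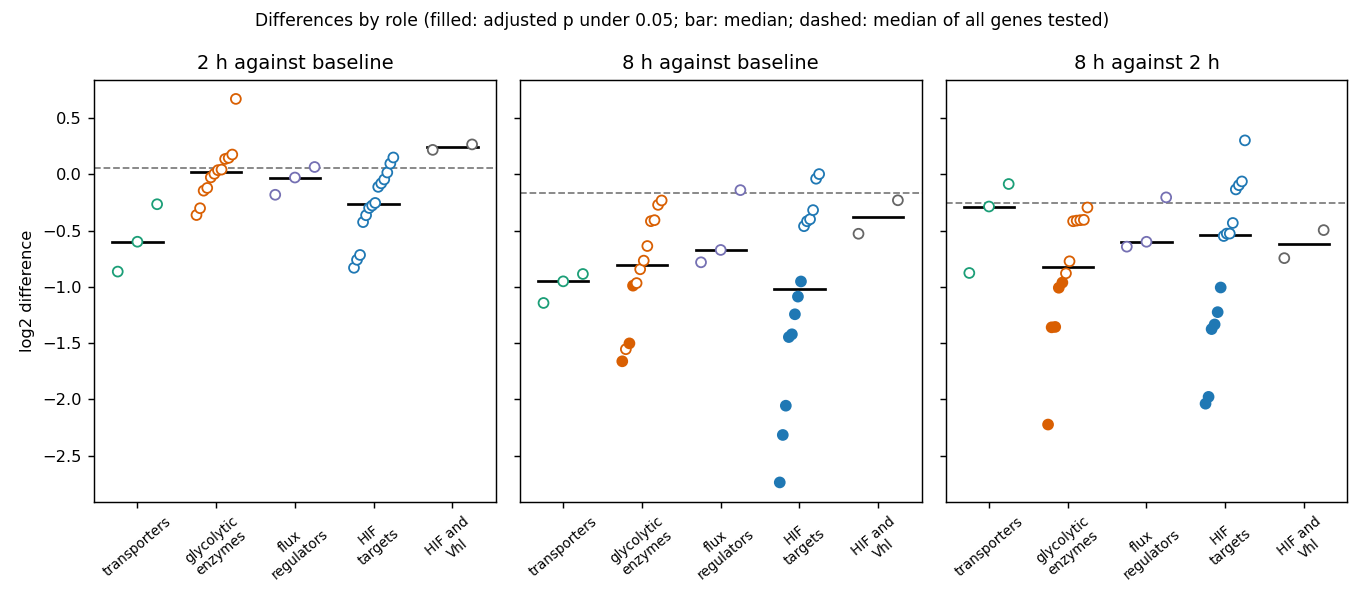
Log2 differences of the tested members in each comparison (y axis), by role (x axis), where filled points passed an adjusted p under 0.05, black bars are list medians and the dashed line is the median of all genes tested. At 8 h against baseline the medians are −1.02 for HIF targets and −0.81 for enzymes, beside −0.16 for all genes.

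Among the HIF targets the deepest fall was that of Ak4. Its row with the higher mean read 10.23 and 10.36 at baseline, 9.53 at 2 h, then 7.56 at 8 h, which is 6.67-fold lower than baseline (−2.74, SE 0.20, limma adjusted p = 0.000494) and ranked 1 among falls of the 10699 genes tested. A second row, also annotated to Ak4 alone, did not show a fall of this size. It read 8.23 and 8.59 at baseline, 8.09 at 2 h and 7.81 by 8 h, a difference of −0.60. Ak4 was called with the mean of both rows but not with the row of lowest mean. Both rows were lowest at 8 h, but the size of the fall rests on the choice of row. The annotation gives both the same gene, and whether either row reads a near-identical copy was not tested, here or for the other 5 members with 2 rows.

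Egln3, an oxygen-sensing prolyl hydroxylase that HIF itself induces, stood at 11.35 and 11.17 at baseline and 10.98 at 2 h before reaching 8.94 at 8 h. It was 4.98-fold lower than baseline (−2.32, SE 0.21, limma adjusted p = 0.00139). Its relative Egln1, the hydroxylase that sets basal HIF turnover in most tissues, went from 10.04 and 10.20 to 10.04 at 2 h and 9.03 at 8 h (−1.09, SE 0.21, limma adjusted p = 0.0314). In both genes the 8 h array lay below the other 3 arrays, while the 2 h differences were −0.28 for Egln3 and −0.08 for Egln1.

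Bnip3 read 8.94 at 8 h, after 11.23 and 10.76 at baseline and 10.16 at 2 h, and was 4.16-fold lower than baseline (−2.06, SE 0.24, limma adjusted p = 0.00508). A second row of Bnip3 gave −2.01. Its close relative Bnip3l, a mitophagy receptor with a similar role, read 13.23 and 12.88 at baseline, 12.76 at 2 h, then 13.06 at 8 h. The 8 h value of Bnip3l lay between the 2 baseline arrays (0.00, SE 0.23, limma adjusted p = 0.998), and its second row gave −0.01.

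Ero1a, the oxidase that makes disulfide bonds in the endoplasmic reticulum, read 10.77 and 11.10 at baseline, 10.82 at 2 h and 9.49 by 8 h (−1.45, SE 0.22, limma adjusted p = 0.016). Higd1a, a small protein of the inner mitochondrial membrane, was near the dim limit and read 7.53 and 7.51 at baseline, 7.47 at 2 h, then 6.10 at 8 h (−1.42, SE 0.20, limma adjusted p = 0.0111). Its second row, dim throughout, gave −0.89. At 2 h Ero1a stood at −0.11 and Higd1a at −0.05, so in both genes the 8 h array alone lay low.

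Vegfa, by contrast, was lower on both IFNa arrays, with 8.36 at 8 h after 8.88 at 2 h (−1.24 from baseline, SE 0.21, limma adjusted p = 0.0227). P4ha1, the main catalytic subunit of collagen prolyl hydroxylase, was tight at baseline (10.36 and 10.40) and read 9.96 at 2 h and 9.43 at 8 h (−0.95, SE 0.20, limma adjusted p = 0.0414). Groups that did not overlap, with baseline highest and 8 h lowest, were seen in 15 of 34 members, against 10.7% of all genes tested. These were 9 of 14 HIF targets (Ak4, Bnip3, Vegfa, P4ha1, Egln1, Egln3, Higd1a, Ankrd37 and Ndrg1), 3 of 12 enzymes (Hk2, Pgam1 and Aldoa), Slc2a1, Slc2a3 and Pfkfb3. Each IFNa group is 1 array, and the order alone does not show a fall at 2 h. Nor are these counts comparable between roles, since the baseline arrays typically lay further apart in the enzymes than in the HIF targets. From the lower baseline array the 2 h value differed by only −0.003 in Egln1, −0.02 in Aldoa and −0.03 in Higd1a. It differed by −0.05 in Pfkfb3 and −0.06 in Hk2, and by most in Ak4 (−0.69).

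The other HIF targets outside glycolysis did not pass. Ankrd37, an ankyrin repeat protein, stood at −0.46 (SE 0.20) and Ndrg1, a stress-responsive differentiation factor, at −0.32 (SE 0.21). Mxi1, which opposes Myc at DNA, stood at −0.40 (SE 0.22). Ddit4, an inhibitor of mTOR signalling, differed so widely between the baseline arrays (9.38 and 10.18) that its 8 h value of 9.36 matched the lower of them and stood −0.82 from the higher. The histone demethylase Kdm3a read 10.45 and 10.36 at baseline, 10.50 at 2 h and 10.36 by 8 h (−0.04, SE 0.20, limma adjusted p = 0.928), so the 4 arrays spanned less than for the called members.

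Among the enzymes, Hk2, the inducible hexokinase that traps glucose in the cell, read 8.47 and 8.96 at baseline, 8.41 at 2 h, then 7.05 at 8 h, a 3.16-fold fall (−1.66, SE 0.25, limma adjusted p = 0.0136). Hk1, the constitutive form, read 10.21 and 10.72 at baseline, 10.64 at 2 h and 10.23 by 8 h (−0.23, SE 0.25, limma adjusted p = 0.593). The 8 h value of Hk1 lay between the baseline arrays and that of Hk2 lay below both. The difference between the 2 genes was not tested.

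Phosphofructokinase catalyses the committed step of glycolysis. The liver-type subunit Pfkl fell from 9.81 and 10.46 at baseline and 9.99 at 2 h to 8.63 at 8 h (−1.50, SE 0.28, limma adjusted p = 0.0289). The platelet-type subunit Pfkp missed the threshold (−0.97, SE 0.22, limma adjusted p = 0.0503) with 11.19 and 11.49 at baseline, 11.38 at 2 h, then 10.37 at 8 h. It passed under quantile normalization, centred arrays, an intensity trend and the mean of a gene's rows. The muscle-type subunit Pfkm stood at −0.84 (SE 0.25, limma adjusted p = 0.0945). All 3 subunits were lower at 8 h than on the other 3 arrays.

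Tpi1, which interconverts the triose phosphates, read 12.80 and 13.06 at baseline, 12.90 at 2 h and 11.94 by 8 h (−0.99, SE 0.21, limma adjusted p = 0.0449). Aldoc showed one of the lowest 8 h values relative to baseline (8.48 and 9.58 at baseline, 9.70 at 2 h, 7.47 at 8 h), but its difference of −1.55 did not pass because its baseline arrays lay far apart (SE 0.38, limma adjusted p = 0.062). Aldoa, the main aldolase of most cells, stood at −0.42 (SE 0.21).

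The remaining enzymes were not called at 8 h. The phosphoglycerate mutase Pgam1 stood at −0.77 (SE 0.21, limma adjusted p = 0.0785), the pyruvate kinase gene Pkm at −0.64 (SE 0.26), the lactate dehydrogenase Ldha at −0.41 (SE 0.21) and the phosphoglycerate kinase Pgk1 at −0.27 (SE 0.21). Ldha read 13.74 and 13.91 at baseline, 13.83 at 2 h, then 13.42 at 8 h. The 8 h array was the lowest of the 4 in each of these genes, yet none was called. On the 19 rows that Gapdh shares with other genes, log2 differences ran from −0.05 to 0.00 at 8 h and from −0.09 to −0.01 at 2 h, and they cannot be assigned to Gapdh.

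Among the transporters, Slc2a1 read 10.74 at 8 h, hardly different from its 2 h value of 10.83 (−0.95 from baseline, SE 0.30, limma adjusted p = 0.113). Slc2a3 read 9.48 at 8 h (−0.89, SE 0.27, limma adjusted p = 0.106) and Slc16a3 read 8.88 (−1.14, SE 0.38, limma adjusted p = 0.125). Each lay below both baseline arrays at 8 h, and each difference more than doubled from baseline 1 alone to baseline 2 alone, from −0.57 to −1.33 for Slc2a1, from −0.57 to −1.20 for Slc2a3 and from −0.60 to −1.68 for Slc16a3. Of the flux regulators, Pfkfb3, which makes an activator of phosphofructokinase, stood at −0.78 (SE 0.22, limma adjusted p = 0.0828). Pdk1, a kinase that shuts the pyruvate dehydrogenase complex, stood at −0.67 (SE 0.22, limma adjusted p = 0.126), and Pfkfb4 at −0.14 (SE 0.22). Hif1a read 12.24 at 8 h (−0.23, SE 0.20, limma adjusted p = 0.501), and Vhl stood at −0.53 (SE 0.21, limma adjusted p = 0.174).

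**Figure D3:**
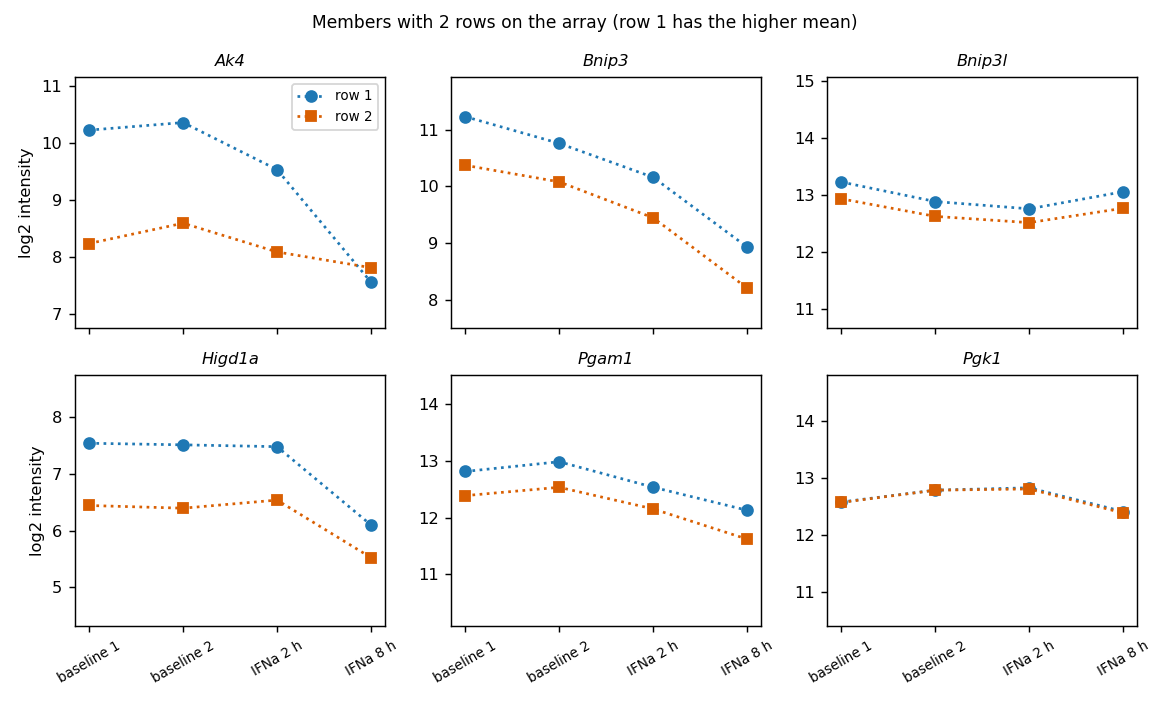
Log2 intensity (y axis) on the 4 arrays (x axis) for the 6 members with 2 rows of their own; dotted lines only join the points of a row. The rows run alike in Bnip3, Bnip3l, Pgam1 and Pgk1, whereas in Ak4 the 8 h difference from baseline is −2.74 in row 1 and −0.60 in row 2.

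The third comparison sets the 8 h array against the 2 h array and asks whether the effect differed between the times. It has 1 array on each side, and its spread comes from the baseline arrays. Of the 34 members 11 were lower at 8 h and none higher (limma, adjusted p under 0.05), where 10.8% of all genes tested were called lower and 1.46% higher. They were 6 of 14 HIF targets (Egln3, Ak4, Higd1a, Ero1a, Bnip3 and Egln1) and 5 of 12 enzymes (Aldoc, Hk2, Pfkl, Pfkp and Tpi1). The median difference was −0.83 for the enzymes and −0.54 for the HIF targets, against −0.25 for all genes tested. With no filter on dim rows 5 of these 11 were called, with Bnip3, Egln1, Hk2, Pfkl, Pfkp and Tpi1 no longer passing. A fall of 2-fold or more was seen in 10 members (8.65% of all genes), and a difference below 0 in 33 (67.9%). Without the filter 2.0% of all genes were lower, and after quantile normalization, with 10 members called, the split over all genes was 1316 lower and 990 higher in place of 1155 and 156.

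Of the members called at 8 h against baseline, Hk2, Pfkl, Tpi1 and the 6 HIF targets above were called here too. Vegfa and P4ha1 were called against baseline but not against 2 h (−0.53 each, SE 0.25 and 0.23, limma adjusted p = 0.159 and 0.139). Slc2a1 stood at −0.09 (SE 0.35) and Slc2a3 at −0.29 (SE 0.32) between the times. Aldoc gave the largest difference of the set, −2.22 (SE 0.44, limma adjusted p = 0.0231), a 4.67-fold gap between the arrays. The comparisons share arrays, so their values are set side by side and are not independent.

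**Figure D4:**
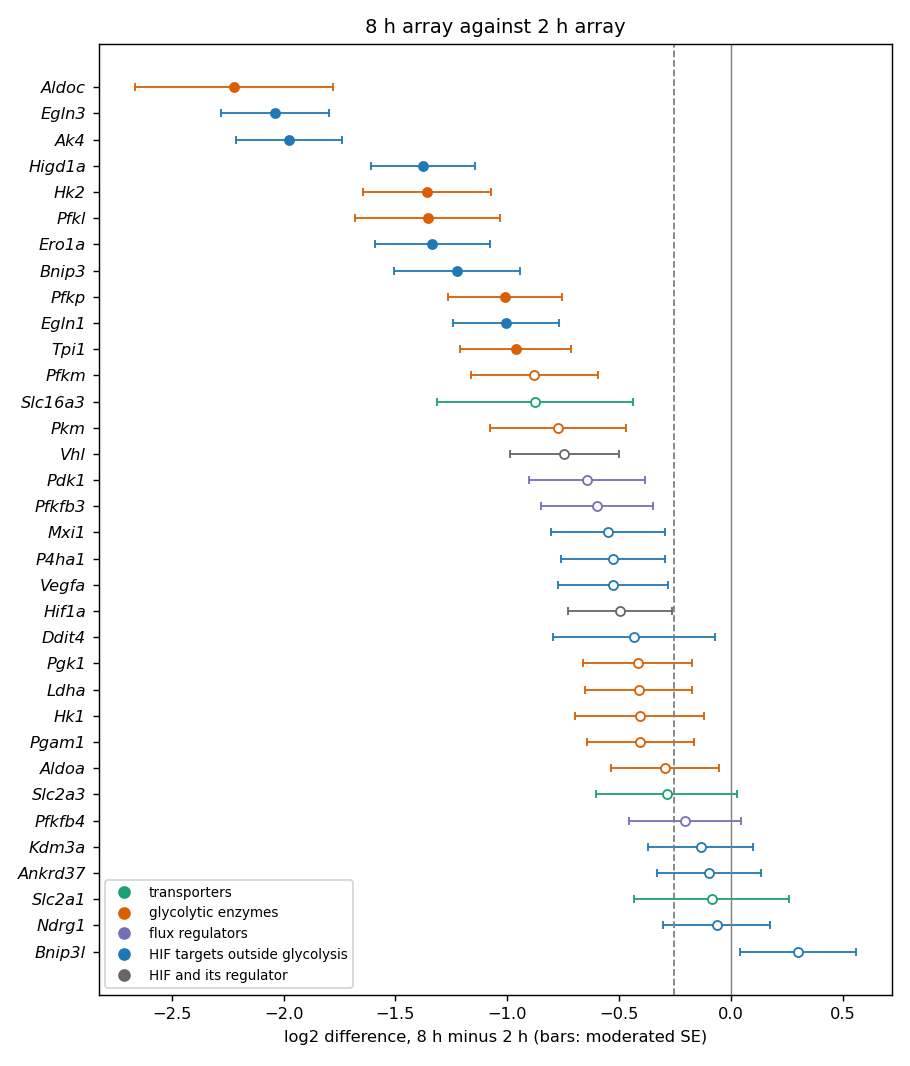
Log2 difference of the 8 h array from the 2 h array (x axis) for each tested member, with the moderated standard error from the model as bars; filled points passed an adjusted p under 0.05, colours give the role and the dashed line is the median of all genes tested. Aldoc (−2.22), Egln3 (−2.04) and Ak4 (−1.98) lie furthest to the left and Bnip3l (0.30) furthest to the right.

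Other genes of the same pathways were taken from wider lists, which were also chosen with earlier results of these data known. Of 34 other genes of glycolysis and pyruvate handling 16 were tested, and at 8 h only Slc16a1, a lactate and pyruvate transporter, fell (−1.54, limma adjusted p = 0.00983), with none higher and a list median of −0.34. The share of all genes tested that were lower was 3.35%, as above. Of 44 other HIF pathway genes 31 were tested, and 8 fell at 8 h with none higher (median −0.36). These were Bhlhe40, a transcriptional repressor (−1.71), Nfil3, a basic leucine zipper factor (−1.46), the carbonic anhydrase Car12 (−1.37), the transferrin receptor Tfrc (−1.36), the HIF subunit Epas1 (−1.26), the mitochondrial protein Fam162a (−1.19), the lipid droplet protein Hilpda (−1.19) and the secreted glycoprotein Stc2 (−1.02). Their limma adjusted p ran from 0.0102 to 0.0359. Hilpda was already at −0.97 at 2 h, whereas Bhlhe40 stood at 1.15 there, neither called. Of 17 tested genes of the citrate cycle, which oxidises the acetyl units made from pyruvate, Suclg2 (−1.30) and Idh3a (−1.03) fell at 8 h, with a list median of −0.40. None of the 3 wider lists held a call at 2 h (limma), where 2 genes were lower and 4 higher at an unadjusted p under 0.05, with 2.78% and 9.36% over all genes.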

How the data were processed

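Each of the 4 RNA samples was read on its own Affymetrix mouse gene array. The values that the authors deposited are intensity on a linear scale, for which the submitters' processing notes name RMA and Affymetrix Power Tools with no version. RMA corrects background, normalizes and summarises probes. The set of arrays that went through RMA together is not given in the labels.

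Log2 of the deposited intensity was taken with no pseudocount. Rows were named through the platform annotation, and only rows with 1 gene symbol were used (21425 of 24922). A gene was tested if 1 array or more had it above that array's median, which left 10699. Limma 3.58.1 in R 4.3.3 fitted a mean for each of the 3 groups with empirical Bayes moderation, two-sided, with Benjamini-Hochberg adjustment over all tested genes. The spread came from the baseline arrays, which leave each gene 1 residual degree of freedom, moderated towards a prior SD of 0.175 with 7.46. The number of arrays limits the precision. The script was tested on simulated data in which every array had the same spread for a gene. Such data cannot tell whether the lone IFNa arrays vary as the baseline arrays do.

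The members, role lists, wider lists and markers were chosen with earlier results of these data known. Any member could be named, with values on every array for those called or differing 2-fold, and other genes only from the wider lists. Promoter windows were read from RefSeq (GRCm38.p6). Alternatives are given in the closing section.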

Additional observations from a re-analysis of the deposited data

Results flagged for a closer look

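In the test of 8 h against 2 h itself (limma, 1 array on each side), 10.8% of all genes tested were called lower and 1.46% higher. The difference between the 2 times passed it in 11 of 34 members, all lower at 8 h. Among glycolytic enzymes these were Aldoc (−2.22), Hk2 (−1.36), Pfkl (−1.36), Pfkp (−1.01) and Tpi1 (−0.96), and among HIF targets outside glycolysis Egln3 (−2.04), Ak4 (−1.98), Higd1a (−1.38), Ero1a (−1.33), Bnip3 (−1.22) and Egln1 (−1.01), all as log2 differences. For Ak4 the second row gave −0.28, and for Higd1a −1.01. Higd1a passed the dim filter only through the 2 h array, the high side of this comparison. Ak4, Hk2 and Aldoc passed it only through arrays other than the 8 h array. Whether IFNa or time in culture accompanied the change cannot be told apart.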

How the results depend on the processing

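No member changed sign past the threshold under any alternative run. Members called at 2 h rose from 0 to 5 after quantile normalization, as calls over all genes rose from 118 to 441. At 8 h against baseline the 11 members called, of 428 genes in all, became 19 of 1563 after quantile normalization, 19 of 794 with centred arrays and 6 of 143 with no dim filter. At 8 h against 2 h the 11 of 1311 became 5 of 415 with no dim filter. The other alternatives stayed within 1.5 times for the members. The median of HIF targets at 8 h against baseline (−1.02) was −0.75 after quantile normalization and −0.60 with the rows of lowest mean, an alternative chosen after seeing the data. That of the enzymes (−0.81) was −0.69 after quantile normalization and −0.84 with the rows of lowest mean. With those rows the enzymes' median was thus the lower one, so the order of the lists depends on the setting. At 8 h against 2 h the median of HIF targets (−0.54) was −0.21 after quantile normalization and −0.72 with centred arrays. The median of all tested genes at 8 h against baseline moved from −0.16 to 0.00 after quantile normalization and to −0.24 with centred arrays. Leaving out a baseline array gives values with no test. The enzymes' median then ran from −0.15 to 0.19 at 2 h and from −1.0 to −0.64 at 8 h, and that of the HIF targets from −0.30 to −0.27 and from −1.04 to −0.97. The cause of these shifts was not tested. Called in no comparison under the main setting or any of 8 others were 13 members, among them Hk1, Ldha, Bnip3l, Kdm3a and Hif1a. No paired analysis was possible because the groups share only the replicate number 1.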
